A study of Mus musculus with 8 samples.

Results

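*Fas*, *Eda2r*, *Aen*, *Ei24* and *Trp53inp1* are 5 genes that p53 is known to activate and that act in, or close to, programmed cell death outside the BCL2 family. They were chosen by name, and each is among the 1425 genes to which the authors assigned a region with more p53 binding after bleomycin (BLM). For each gene the assigned region and its distance to the transcription start site (TSS) were taken from the deposited gene table, and the TSS position was obtained from them. All p53 peaks with a summit within 50 kb of that TSS were then read from the peak lists of all 4 libraries. Since the table lists only regions chosen as higher in BLM, a rise in BLM at these regions is part of how they were chosen and is given below as a description.

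The libraries came from p53 chromatin immunoprecipitation sequencing (ChIP-seq) of mouse alveolar organoids, feeder-free cultures grown from alveolar type 2 (AT2) cells, the surfactant-producing progenitors of the lung epithelium. All groups were of the wild-type genotype, and per the study's methods the mice were adult males. CTRL organoids (2 libraries) received vehicle and BLM organoids (2 libraries) received 100 μM bleomycin, an agent that breaks DNA, each for 24 h, and all were fixed with formaldehyde and the crosslinker DSG and precipitated with the rabbit monoclonal p53 antibody D2H9O. An input library without antibody accompanied each of the 4, and no peak list of the inputs was analysed here. The data came from a pair of mice, and which libraries share a mouse is not stated in the sources used here, so the spread between replicates may be partly technical. Peak lists hold no expression values, so the AT2 identity of the cells was not checked against marker genes.

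p53 is a transcription factor that is stabilised when DNA breaks, and it binds an element made of a pair of similar half-sites, often with a short spacer between them. Cell death downstream of p53 runs along a mitochondrial route, through the BCL2 family, and along a surface route, through death receptors of the TNF receptor family. *Fas* encodes the receptor of Fas ligand, whose death domain recruits FADD and caspase-8, and in human cells an element in the first intron of this gene is a textbook p53 site. *Eda2r* encodes XEDAR, the receptor of ectodysplasin A2, a TNF receptor family member without a death domain that signals through TRAF proteins. *Aen* encodes apoptosis-enhancing nuclease, which degrades DNA and RNA in the nucleus. *Ei24* encodes a membrane protein of the endoplasmic reticulum that takes part in autophagy and was first found as a gene induced by etoposide. *Trp53inp1* encodes a stress protein that joins p53 with kinases such as HIPK2 and also binds LC3-type proteins of the autophagosome.

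The 5 assigned regions were each 400 bp long, and all lay within 5 kb of the TSS of their gene. The *Aen* region, at chr7:78545494-78545893 of GRCm39, had its middle 18 bp downstream of the TSS. The *Ei24* region, at chr9:36708451-36708850, had its middle at −81 bp, and the *Trp53inp1* region, at chr4:11156060-11156459, at −172 bp. These 3 regions therefore spanned or touched the start of their gene. The *Eda2r* region, at chrX:96420102-96420501, was centred at +521 bp, and the *Fas* region, at chr19:34269562-34269961, at +1702 bp, so that both receptors had their region inside the gene, past the TSS. The *Fas* region was the only one of the 5 also assigned to a second gene, *Ch25h*, a cholesterol 25-hydroxylase gene whose TSS lay 182774 bp away. No exon annotation of GRCm39 was used here, so exon or intron is not given. For comparison, an enriched region at any distance was assigned to 6.28% of RefSeq protein-coding genes, and one within 5 kb to 0.818%. The 5 genes were taken from those with an assigned region, so having one is no finding. Of the 1425 genes with an assigned region, 185 had one within 5 kb, which is the nearer base for these distances.

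The promoters of *Aen*, *Ei24* and *Fas* are printed because a p53 peak covered the start of each gene in all 4 libraries, in *Fas* in addition to the enriched region downstream of it. At *Eda2r* only the BLM replicate 1 peak reached the start. Each runs 5′ to 3′ from 250 bases before to 50 bases after the RefSeq start (RefSeq, GRCm38.p6), which may differ from the TSS implied by the gene table, and capitals mark a p53 half-site of 10 bases without a mismatch. The positions are chr7:78895677-78895976 on the plus strand for *Aen*, chr9:36797285-36797584 on the minus strand for *Ei24* and chr19:34290409-34290708 on the plus strand for *Fas*.
Aen: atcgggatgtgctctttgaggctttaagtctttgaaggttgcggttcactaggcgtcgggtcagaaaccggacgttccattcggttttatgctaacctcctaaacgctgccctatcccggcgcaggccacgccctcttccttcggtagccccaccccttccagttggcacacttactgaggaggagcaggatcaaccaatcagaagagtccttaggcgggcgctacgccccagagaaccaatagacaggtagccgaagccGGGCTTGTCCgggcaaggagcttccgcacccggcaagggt
Ei24: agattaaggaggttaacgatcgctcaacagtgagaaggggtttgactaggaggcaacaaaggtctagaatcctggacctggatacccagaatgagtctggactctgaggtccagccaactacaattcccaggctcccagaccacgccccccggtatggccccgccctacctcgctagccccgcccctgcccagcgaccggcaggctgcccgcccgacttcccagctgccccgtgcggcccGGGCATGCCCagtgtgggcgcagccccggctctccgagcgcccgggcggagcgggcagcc
Fas: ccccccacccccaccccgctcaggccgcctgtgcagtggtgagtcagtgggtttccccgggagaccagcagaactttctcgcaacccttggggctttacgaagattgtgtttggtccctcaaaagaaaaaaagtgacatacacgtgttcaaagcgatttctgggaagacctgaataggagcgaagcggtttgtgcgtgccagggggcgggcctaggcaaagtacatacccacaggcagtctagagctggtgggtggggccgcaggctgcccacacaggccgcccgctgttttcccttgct
The table has 2 starts for *Aen*, and the window of the upstream one is printed. *Aen* held the half-site GGGCTTGTCC, from base 11 to 20 after this start and from −121 to −112 relative to the other, and *Ei24* held GGGCATGCCC over the last 10 bases before its start. The half-site is its own reverse complement as a pattern, so the search covered both strands. A half-site without a mismatch stood in 2745 of 32851 RefSeq promoters of this length (8.36%), and in 2 of the 4 genes with an entry in the table, which did not include *Trp53inp1*. This search was added after seeing the data, so nothing is read from the difference. Here and below the background counts promoters, whereas each gene is counted once, although *Aen* had 2 promoters. A pair of half-sites with at most 3 mismatches and a spacer of up to 13 bases was found in *Aen*, *Ei24* and *Fas*, and in 45.1% of all promoters, so that such a match is common. With at most 2 mismatches only *Aen* of the 4 genes kept a pair, with a spacer of 7 bases, against 10.1% of all promoters. The *Eda2r* promoter held neither form. These letters describe the reference sequence and are not evidence of binding.

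Peak lists of 50430 and 48743 peaks were deposited for CTRL, and of 39577 and 41451 for BLM, with no read counts, so the sequencing depth is unknown. Peak strength is given as fold enrichment, the signal at the summit over the local background, together with its rank by fold within its own list. Among called peaks, fold enrichment tended to be lower in BLM. Over 26316 joined regions with a peak in all 4 libraries, the median log2 ratio of BLM to CTRL was −0.37, and the medians of these regions were 10.3 and 10.0 in CTRL and 7.61 and 7.78 in BLM. The ratio at the enriched region of each gene is given as measured, and then scaled by each library's median over those joined regions, which raises it by 0.40 on the log2 scale. Other ratios are given as measured unless stated. Comparisons are given without a test, because the exact permutation test, with 2 libraries in each group, has a smallest two-sided p of 0.333.

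Of the receptors, *Eda2r* had the strongest peak of the 5 genes in BLM and the largest ratio. Its fold enrichment was 12.0 and 11.4 in CTRL and 52.0 and 57.4 in BLM. Both BLM values stood far above both CTRL values, and the replicates of each group lay close together. The means were 11.7 ± 0.408 in CTRL and 54.7 ± 3.80 in BLM (SD, n = 2), a ratio of 4.67, or 2.22 on the log2 scale, and 2.63 after scaling. Its place was 9967 and 10653 in the CTRL lists and 59 and 49 in the BLM lists, which are shorter. As a share of its own list, 80.2% and 78.1% of CTRL peaks and 99.85% and 99.88% of BLM peaks were at or below it. Its summit lay at +521, +526, +526 and +516 bp, a span of 10 bp over all 4 libraries, so that the same position was called with and without bleomycin.

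The *Fas* region differed from the other 4 in having a peak in BLM alone. Neither CTRL list had a peak over it, whereas the BLM lists held peaks of 14.1 and 13.3, with −log10 q of 28.7 and 26.2 against a floor of about 2 in every list. The BLM mean was 13.7 ± 0.575 (SD, n = 2), the lowest of the 5 genes, and the ranks were 2355 and 3406. No ratio can be given, since a missing peak is not a value. The summits, at +1706 and +1681 bp, lay 25 bp apart. *Fas* was the 1 gene of 5 called in each BLM library and not in CTRL, a pattern that 56.8% of the 915 enriched regions and 2.03% of all 63268 joined regions showed. The nearest CTRL peaks ended 875 and 497 bp short of the region, with folds of 8.14 and 4.60.

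A separate p53 peak at the *Fas* start did not follow this pattern. With its summit at about −35 bp, it had folds of 10.8 and 10.1 in CTRL and 9.65 and 11.6 in BLM. The groups overlapped, and the log2 ratio was 0.02. Between these lay another peak, at about +418 bp, had folds of 8.14 and 8.18 in CTRL and 6.73 and 7.70 in BLM. Here both BLM values were below both CTRL values, with a log2 ratio of −0.18, an order that 47.2% of the joined regions called in all 4 libraries also had. A weaker peak at +1390 bp, with a fold of 5.81, was called in BLM replicate 1 only. Near the start of the death receptor gene, the sites called in all libraries were thus, as measured, of similar strength in both conditions or slightly lower in BLM. Scaling by the amount given above would make both log2 ratios positive, so the direction at these sites depends on the scale used.

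**Figure D1:**
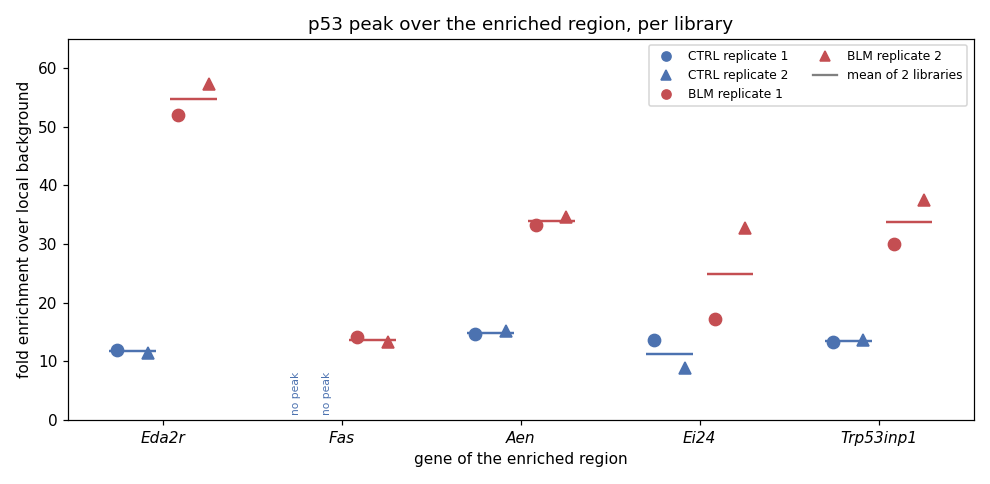
Fold enrichment of the p53 peak over the enriched region of each gene (vertical axis, from 0) in each of the 4 libraries (points), with the mean of 2 libraries as a bar. The BLM points stood above the CTRL points in *Eda2r*, *Aen*, *Ei24* and *Trp53inp1*, with the widest spread in *Ei24*, and *Fas* had no CTRL peak.

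Among the intracellular proteins, the nuclease gene *Aen* had the closest BLM replicates. Its fold enrichment was 14.6 and 15.1 in CTRL and 33.3 and 34.7 in BLM. Both BLM values stood well above both CTRL values, and the replicates of each group were nearly equal. The means were 14.9 ± 0.377 and 34.0 ± 0.975 (SD, n = 2), a ratio of 2.29, or 1.19 on the log2 scale and 1.59 after scaling. Its peak ranked 5991 and 5068 in the CTRL lists and 143 and 138 in the BLM lists. It was the strongest CTRL peak of the 5 genes by mean fold. Summits lay at +13 and +45 bp in CTRL and at +25 and +15 bp in BLM. They were not placed on the printed promoter, since the builds differ and *Aen* has more than 1 RefSeq start.

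*Trp53inp1*, the p53 cofactor gene, was close to *Aen* in level. Its folds were 13.3 and 13.6 in CTRL and 30.1 and 37.5 in BLM. The CTRL libraries were nearly equal and the BLM libraries further apart, with no overlap between the groups. The means were 13.4 ± 0.177 and 33.8 ± 5.24 (SD, n = 2), a ratio of 2.51, or 1.33 on the log2 scale and 1.73 after scaling. The BLM means of *Trp53inp1* and *Aen* differed by less than their spread, and so their order is not resolved. Ranks were 7726 and 6897 in CTRL and 179 and 121 in BLM. The summits, between −177 and −162 bp, spanned 15 bp.

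*Ei24*, the autophagy and endoplasmic reticulum gene, varied most between replicates. Its folds were 13.6 and 8.86 in CTRL and 17.1 and 32.8 in BLM. The groups did not overlap, but the lower BLM value was nearer to the higher CTRL value than to the other BLM value. The means were 11.2 ± 3.37 and 25.0 ± 11.1 (SD, n = 2), a ratio of 2.22, or 1.15 on the log2 scale and 1.55 after scaling. Propagated from the replicates, the SD of this log2 ratio was 0.79, against 0.06 for *Aen*, 0.11 for *Eda2r* and 0.23 for *Trp53inp1*. Without BLM replicate 2 the log2 ratio was 0.61 and without BLM replicate 1 it was 1.55, and it was 1.50 without CTRL replicate 1 and 0.87 without CTRL replicate 2. In percentile, 85.7% and 63.4% of the CTRL peaks and 97.3% and 99.64% of the BLM peaks were at or below it. Its summits lay between −95 and −45 bp, the widest span of the 5 genes, at 50 bp.

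Both BLM folds were above both CTRL folds in 4 of the 4 genes called in all libraries. The same order held in 86.8% of the 280 enriched regions called in all 4 libraries and in 5.87% of all joined regions called in all 4, and since it is the direction for which the enriched regions were chosen, nothing is read from it. Relative to other enriched regions, the median log2 ratio over those 280 was 1.27, so *Trp53inp1*, *Aen* and *Ei24* stood near the middle (places 135, 149 and 150) and *Eda2r* in the upper part (place 38). By mean BLM fold, *Eda2r* was 54th of the 914 enriched regions with a peak in both BLM libraries, *Aen* 114th, *Trp53inp1* 117th, *Ei24* 175th and *Fas* 384th. The order of the genes by BLM level was thus *Eda2r*, then *Aen* and *Trp53inp1*, then *Ei24* and last *Fas*. In each of the 2 BLM libraries *Ei24* stood below its neighbours *Aen* and *Trp53inp1* and above *Fas*. Its BLM replicates lay far apart, so its distance from these genes is not resolved beyond its spread.

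**Figure D2:**
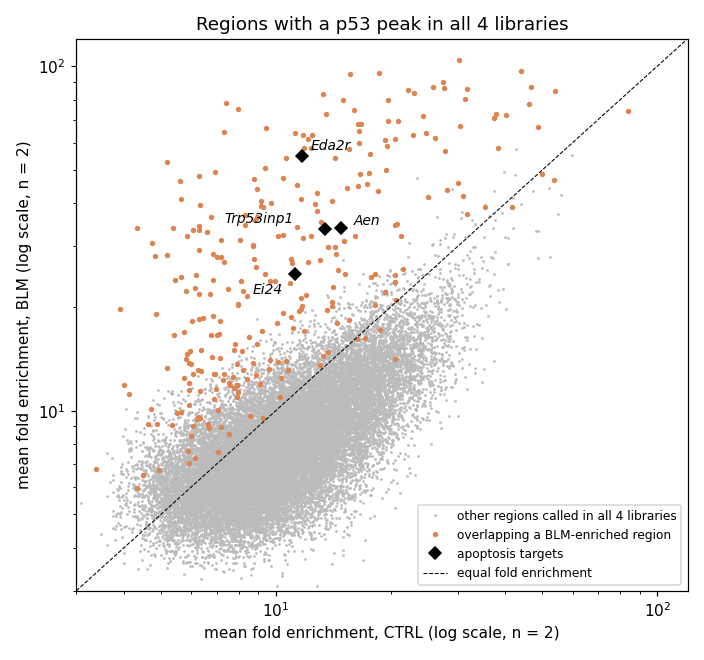
Mean fold enrichment in BLM (vertical, log scale) against CTRL (horizontal, log scale), n = 2 libraries each, for joined regions with a peak in all 4 libraries. The bulk of regions lay below the dashed line of equal fold, and the 4 labelled genes lay above it with most of the other enriched regions, and of the 4 *Eda2r* was furthest from it. *Fas* is not shown, since it had no CTRL peak.

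The peaks also differed in width. At *Eda2r* the width was 214 and 215 bp in CTRL and 885 and 521 bp in BLM. At *Ei24* it was 387 and 229 bp in CTRL and 707 and 687 bp in BLM, and at *Trp53inp1* it was 424 and 573 bp in CTRL and 871 and 930 bp in BLM. In these 3 genes each BLM peak was wider than each CTRL peak. At *Aen* the widths of 532 and 638 bp in CTRL and 669 and 629 bp in BLM overlapped, although its fold ratio was 2.29. The *Fas* peaks measured 224 and 526 bp, so that replicates of similar fold had very different widths. Both BLM peaks were wider in 3 of the 4 genes, against 67.5% of the enriched regions called in all 4 libraries and 6.19% of all joined regions called in all 4. The enriched regions were chosen for higher signal in BLM and had a similar share, so nothing is read from this order. Median peak width over whole lists was smaller in BLM, at 281 and 279 bp, than in CTRL, at 330 and 322 bp. Width and fold are read from the same signal and are not independent measures.

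**Figure D3:**
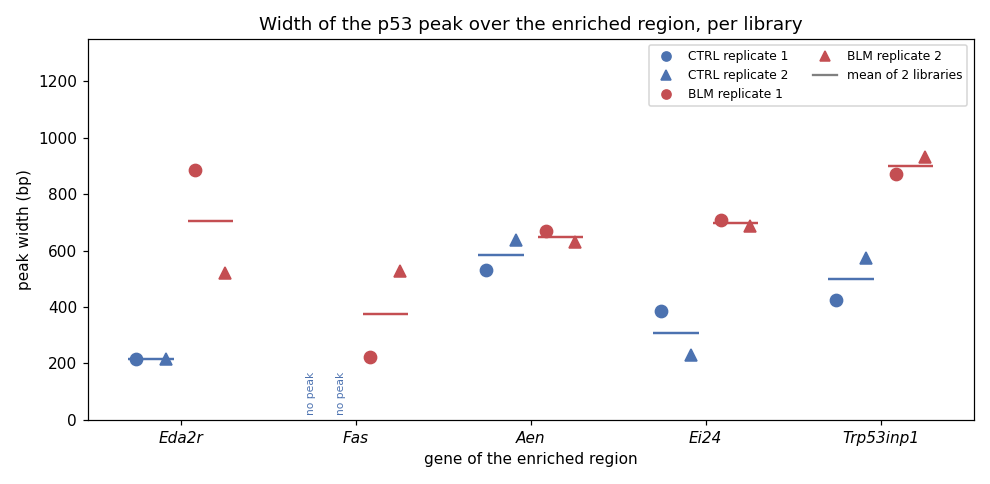
Width in bp (vertical axis, from 0) of the p53 peak over each enriched region, with 1 point per library and the mean of 2 libraries as a bar. The BLM points were above the CTRL points in *Eda2r*, *Ei24* and *Trp53inp1* and mixed with them in *Aen*.

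Summit positions were close between libraries in *Eda2r* and *Trp53inp1*, and less so in *Aen* and *Ei24*. Over the 4 genes with a peak in every library the summits spanned 10 to 50 bp, in the order *Eda2r*, *Trp53inp1*, *Aen* and *Ei24*. The median span was 51.5 bp over the 280 enriched regions called in all 4 libraries and 88 bp over all joined regions called in all 4. Whether the span differs between peaks of equal fold was not tested.

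Within 50 kb of the 5 starts the peak lists held 18 and 21 peaks in CTRL and 18 and 19 in BLM, which is 19.5 ± 2.12 against 18.5 ± 0.707 (SD, n = 2). The groups overlapped, and with lists of equal length the means were in the reverse order, 15.5 in CTRL and 18.5 in BLM. Joined across libraries they made 27 sites, of which 5 were the enriched regions and 22 flanked them. Of the 7 flanking sites with a peak in all 4 libraries, none had both BLM folds above both CTRL folds, 1 had them below (the *Fas* site at +418 bp), and 6 overlapped. Over all joined regions called in all 4 libraries the shares were 5.87% above and 47.2% below, so an absence of higher sites among so few is near the background and nothing is read from it. The median log2 ratio of these 7 flanking sites was −0.18 as measured, with a range from −0.73 to 0.10. Scaling, which would raise each ratio, was not applied to them. The other 15 flanking sites were not called in every library, and 7 of them were seen in 1 library only. A single flanking site was called in each BLM library and not in CTRL, at −6112 bp from the *Fas* start, with folds of 5.00 and 5.36, a pattern of 2.03% of joined regions. The reverse pattern occurred once, at +34386.5 bp (the median summit) from *Trp53inp1*, with CTRL folds of 7.72 and 4.98.

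The genes differed in how crowded their surroundings were. *Eda2r* was alone, with 1 peak per library within 50 kb, and its next peak lay 820713 and 820632 bp away in CTRL and 103894 and 1240890 bp away in BLM. *Ei24* had 2 peaks in each library. Its second, at about +29457 bp, had folds of 5.69, 5.83, 5.81 and 6.58 in CTRL 1, CTRL 2, BLM 1 and BLM 2, so that the groups overlapped there and were apart at the start. *Aen* had 4, 4, 3 and 4 peaks in the same order of libraries. Its strongest flanking peak, at +17934.5 bp (the median summit) on the side of the neighbouring gene *Isg20*, had folds of 14.5 and 10.2 in CTRL and 8.94 and 12.9 in BLM. In CTRL this flanking peak was about as strong as the one at the *Aen* start in replicate 1, and in BLM it was far weaker than that peak in both libraries. *Trp53inp1* had 5, 7, 5 and 5 peaks, the strongest flanking one at +35227 bp, on the side of the cyclin gene *Ccne2*, with folds of 16.6 and 11.3 in CTRL and 9.61 and 12.8 in BLM. Again the flanking peak had overlapping groups and the peak at the start did not. The peaks at the starts lie in regions chosen as higher in BLM, whereas flanking sites were not chosen so. Of the enriched regions called in all 4 libraries, 86.8% had both BLM folds above both CTRL folds. Nothing is therefore read from these contrasts between start and flank. *Fas* had 6, 7, 7 and 7 peaks. Among them, a site at −27851 bp, on the side of *Acta2*, had folds of 6.73 and 15.9 in CTRL and 7.51 and 6.12 in BLM, so that CTRL replicate 2 alone was high.

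**Figure D4:**
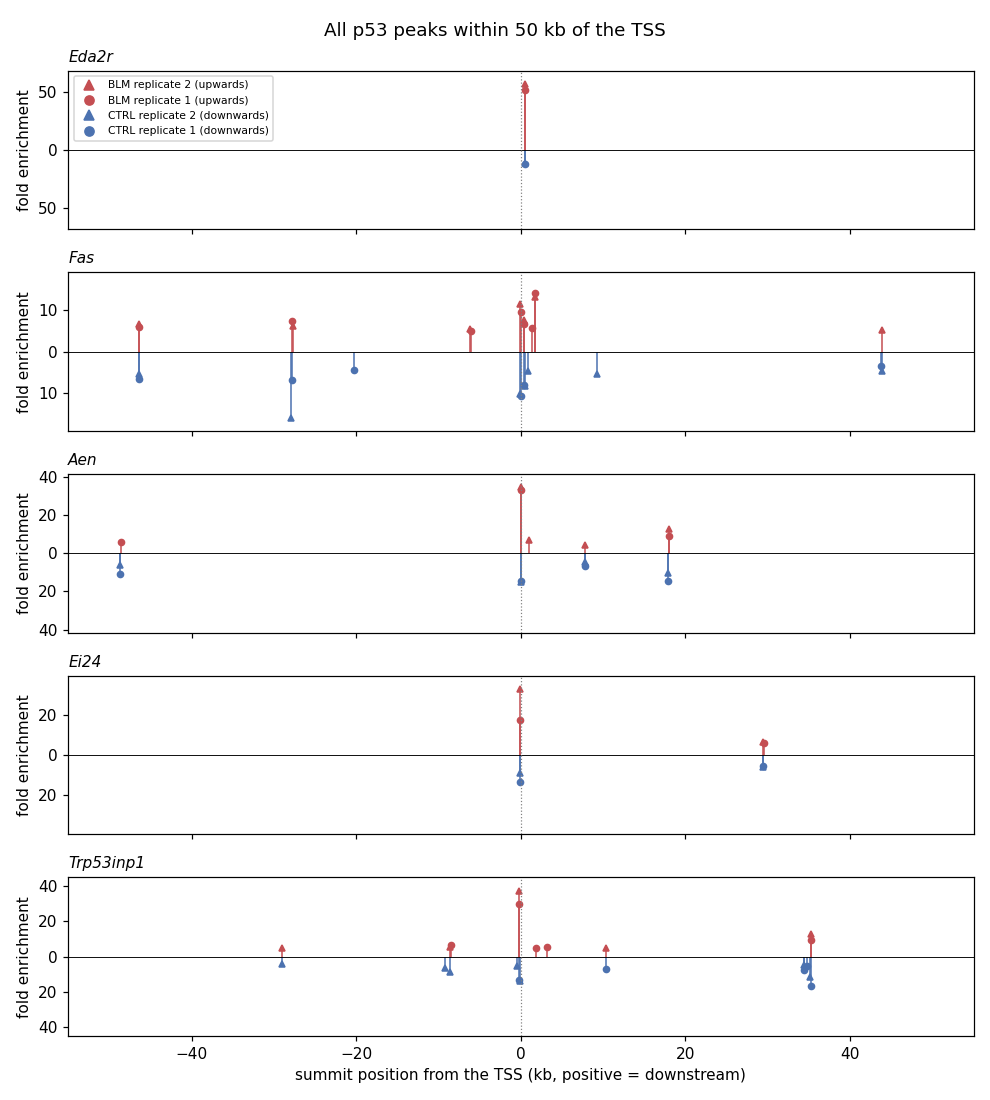
All p53 peaks within 50 kb of each TSS, with summit position in kb on the horizontal axis (positive is downstream) and fold enrichment on the vertical axis, BLM upwards and CTRL downwards. Each gene has its own vertical scale, equal in both directions. The upward lines exceeded the downward ones at the enriched regions near 0. Flanking peaks called in all libraries had overlapping heights in both directions or were slightly lower upwards, and the others were called in some libraries only.

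The enriched regions whose 4 percentiles were most like those of each gene were sought among 177 regions with a gene within 5 kb, by Euclidean distance in percentile points over 4 libraries, with a missing peak set to 0. For *Eda2r* these were the regions of *Map3k20*, a stress-activated kinase gene, at 2.14 points, and of *Itgb4*, an integrin gene, at 2.55. For *Trp53inp1* they were those of *Ptma* at 1.94 and *Orai2* at 4.71, and for *Aen* those of *Orai2*, a calcium channel gene, at 2.99 and of *Cdkn1a*, the cell cycle inhibitor p21, at 3.71. The *Ei24* pattern, with its split CTRL replicates, had *Dhx35* at 4.08 and *Olfr543* at 7.34 as its nearest. *Fas* resembled *Inpp5b* at 3.18 and *Ptgdr2* at 3.56, both also without a CTRL peak. The 4 libraries give only 4 points per pattern, and the likeness is a description.

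Other genes of these routes were counted from lists of 51 genes beside the 5, and 9 of them (17.6%) had an assigned enriched region, against the 6.28% of RefSeq protein-coding genes given above. The genes were listed by name with earlier results of these data known, so nothing is read from this difference in share. The assigned regions were themselves chosen as higher in BLM, so a rise in BLM at them is again no finding. Of the 8 death and ectodysplasin receptors listed, *Fas* and *Eda2r* alone had one, and *Tnfrsf1a*, *Tnfrsf10b*, *Tnfrsf21*, *Tnfrsf25*, *Ngfr* and *Edar* had none. Of 6 TNF-family ligands, *Tnfsf9*, the ligand of 4-1BB, had a region at +16647 bp, with peaks of 20.8 and 17.8 in BLM and none in CTRL. Neither Fas ligand nor ectodysplasin A had one. Of 13 adaptors, inhibitors and caspases of the extrinsic route, 3 had a region, each more than 50 kb from the TSS. They were *Fadd*, the adaptor of Fas, at −102503 bp, and the caspase-binding inhibitor genes *Xiap* at −75558 bp and *Birc3* at −92739 bp. The *Fadd* region had a fold of 4.28 in CTRL replicate 1, no peak in CTRL replicate 2, and folds of 10.0 and 15.4 in BLM. The *Xiap* region had peaks of 19.1 and 14.7 in BLM and none in CTRL. The *Birc3* region was strong throughout, with folds of 49.2 and 48.1 in CTRL and 73.4 and 59.8 in BLM. No caspase gene of the list had a region.

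Of 15 other p53 apoptosis targets outside the BCL2 family, 3 had a region. The nearest region of each lay within 5 kb of the TSS, against 0.818% of RefSeq protein-coding genes with one so near. This list too was chosen with earlier results of these data known, so nothing is read from the difference. *Plk2* had 4 assigned regions and *Phlda3* had 2, and only the nearest is described. *Zmat3*, an RNA-binding protein gene, had folds of 22.4 and 22.1 in CTRL and 70.7 and 99.7 in BLM at +1335 bp. *Phlda3*, an inhibitor of Akt, had folds of 19.8 and 13.1 in CTRL and 61.5 and 74.1 in BLM at +20 bp. *Plk2*, a stress-induced polo-like kinase, had folds of 11.0 and 10.2 in CTRL and 54.9 and 53.1 in BLM at −2155 bp, values close to those of *Eda2r*. In each of these 3 genes both BLM folds were above both CTRL folds, an order found in 86.8% of the enriched regions called in all 4 libraries. Nothing is read from it. Their BLM folds exceeded those of *Aen*, *Ei24*, *Trp53inp1* and *Fas* in every BLM library. Of 11 relatives and partners of *Aen*, *Trp53inp1* and *Ei24*, *Bcl2* and *Bcl2l1*, which restrain mitochondrial cell death, had a region. The *Bcl2l1* region, at +38026 bp, had folds of 43.3 and 36.8 in CTRL and 62.1 and 82.0 in BLM, whereas the *Bcl2* region, at +471254 bp, had weak peaks of 6.77 and 4.93 in BLM and none in CTRL. A region far from its TSS is assigned by position, and its link to the gene was not tested.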

How the data were processed

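Peaks were called by the authors separately for every library, and the submitters' processing notes name Trim Galore 0.6.7, Bowtie2 2.5.1, MACS3 3.0.0b1, DiffBind 3.8.4 and edgeR 3.40.2. The deposited lists give a score (10 times the −log10 q), a fold enrichment as a ratio, and the −log10 of p and q. The control used in calling and the threshold behind the 915 enriched regions are not given in the sources used here. The authors assigned regions to genes with GREAT 4.0.4 (basal domain 5 kb upstream and 1 kb downstream of the TSS, extension up to 1000000 bp), with distances in bp computed on mm10. Peak positions are on GRCm39, and no position was converted.

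Here, peaks sharing at least 1 bp were joined across libraries (checked on simulated lists), in Python 3.11.15 with numpy 2.4.6 and pandas 2.3.3, and figures were drawn with matplotlib 3.10.9. Where several peaks overlapped a region, the highest fold was used. The percentile is the share of a list's peaks at or below a fold. The strand of each gene came from the RefSeq promoter table, and for *Trp53inp1*, which is not in it, from general knowledge. The same peaks fall in its window on either strand. The genes named were the 5 genes, the listed genes with a region, the second gene of a shared region, and the 2 most alike regions per gene. Neighbouring genes were named by position. The genes and lists were chosen with earlier results of these data known. The alternatives were a stricter list (−log10 q of 5 or more), an overlap of 50%, lists of equal length (39577 peaks), ranks by −log10 q, scaling, other windows, each library left out, a replicate block and other motif limits.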

Additional observations from a re-analysis of the deposited data

How the results depend on the processing

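All 4 genes called in every library and the single gene called in BLM alone kept that status under each of the 8 alternatives tried. Leaving out a library could not remove this status, since genes called in every library stay so and *Fas* had no CTRL peak. The stricter list could not remove it either, since every peak over these regions had a −log10 q well above 5. These settings are therefore no check of the status. The median log2 ratio over the 4 genes was 1.26, and it was 1.66 after scaling, 2.22 with −log10 q in place of fold, 1.16 to 1.51 with 1 library left out, and 1.26 with the replicate block. The replicate numbers pair libraries only by label, and no mouse is given for them. With 1 library of a condition left out, the remaining one stands alone and its spread is unknown. No fold ratio changed direction, while the order of the groups in number of peaks did. By gene, the log2 fold ratio ranged from 2.15 to 2.63 in *Eda2r*, 1.16 to 1.59 in *Aen*, 1.16 to 1.73 in *Trp53inp1* and 0.61 to 1.55 in *Ei24*. With −log10 q in place of fold, a different quantity, the log2 ratio was 3.01, 2.18, 2.26 and 1.73 in the same order. The median BLM percentile over 5 genes, 99.63, was 99.76 when ranked by q. The median CTRL percentile over the 4 genes with a CTRL peak, 82.2, was 79.2 with −log10 q of at least 5, 77.7 with lists of equal length, and 82.0 to 85.2 with 1 library left out. The mean number of peaks was 9.0 in BLM and 7.0 in CTRL within 5 kb, 11.5 and 9.5 within 10 kb, and 26.5 and 30.5 within 100 kb, against 18.5 and 19.5 within 50 kb. With lists of equal length the count within 50 kb was 18.5 in BLM and 15.5 in CTRL, and without CTRL replicate 2 it was 18.5 and 18.0, so that BLM was higher in both and within 5 and 10 kb. The number of genes with a pair of half-sites fell from 3 to 1 with 1 fewer mismatch and to 1 with no spacer. Of the 9 other listed genes with a region, 5 had it within 50 kb and 3 within 5 kb. The search for a half-site without a mismatch, and the count of peaks with a summit inside the region, were added after seeing the data. The motif was searched in RefSeq promoters and not in the enriched regions, since no GRCm39 sequence was used here. Unknown depth, 2 libraries per group and a list chosen for its direction limit all comparisons.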
